A study of Mus musculus with 185 samples.

Results

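The genes described here are 7 proteases of the extracellular matrix (Mmp2, Mmp3, Mmp14, Mmp23, Adam12, Adamts2 and Adamts5) and 3 tissue inhibitors of metalloproteinases (Timp1, Timp2 and Timp3). They were chosen by name, with earlier results of these data known, so counts of them beside all genes are descriptions. All 10 are among the 17171 genes of the deposited table, each above 5 TPM, a length-corrected share of all transcripts, in at least 1 cell. The question asked of them was how proteases and inhibitors were distributed, and how their balance stood, in single fibroblasts of uninjured and infarcted mouse hearts.

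The data are 185 single-cell transcriptomes, captured on the Fluidigm C1 system in 4 runs that the cell names call Jul24 (33 cells), Jul29 (57 cells), Nov4 (63 cells) and Nov11 (32 cells). The labels give fibroblasts from the heart of C57BL/6 mice (backcross N=6) of approximately 5 months. The 33 uninjured cells were all captured in Jul24, and the 152 cells of the infarct region, taken 7 days after myocardial infarction, in the other runs. Endothelial and myeloid cells were depleted by sorting against CD31 and CD45.

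The mice carried a tamoxifen-inducible Cre (MerCreMer, MCM) knocked into 1 allele of Postn or of Tcf21, beside a Cre-dependent eGFP reporter at Rosa26 (R26-eGFP). The genotypes were Postn MCM/+ for the first line and Tcf21 MCM/+ for the second. Resident cells comprised 12 labelled Postn- CD31- CD45-, 17 Tcf21-traced cells, 1 untraced Postn+ cell and 3 Tcf21+ Postn+ cells. Activated cells comprised 24 labelled Postn- (Jul29), 27 Postn-traced (Jul29), 44 Tcf21-traced (Nov4) and 28 untraced Postn+ cells (6 from Jul29, 19 from Nov4 and 3 from Nov11). A further 29 cells were labelled as untraced cells of the scar (Nov11).

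Tracing marks a cell whose driver gene was active while tamoxifen was given, and recombination is incomplete, so an untraced cell need not lack that history. The methods tie some eGFP-negative cells to Postn mRNA, so a Postn+ or Postn- label on an untraced cell may rest on the RNA measured here. The labels of both larger Tcf21 classes name tracing or Tcf21 itself and were read as traced, while that of the 3 resident Tcf21+ Postn+ cells names no tracing. The labels of the 28 activated Postn+ cells and the 1 resident Postn+ cell do not name tracing either, and these cells were read as untraced. No label says which mouse a cell, or which of both lines an untraced cell, came from. Each class therefore counts as 1 sample, no difference was tested, and the SD between cells describes cells and not mice.

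Matrix metalloproteinases (MMPs) and their relatives of the ADAM and ADAMTS families are zinc enzymes that cut matrix proteins, growth factor precursors and each other, and most are made as inactive proenzymes. TIMPs bind their active sites and block them. In the infarcted heart this turnover accompanies the clearing of dead tissue and the building of a collagen scar, and fibroblasts are a main source of both kinds of protein.

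A gene was counted as detected in a cell above 5 TPM, and levels are on the deposited log2 (TPM+1) scale unless TPM is named. The number of genes above 5 TPM differed between cells from 141 to 5419, with a median of 2770, and the depth of single cells is not known. In the scar class 5 cells stood apart with 141 to 264 genes. Without scar cells that had under 50% of the median gene number of their capture, 23 scar cells were left, and the number of these above 5 TPM is given for each gene, while medians, composition and combinations of genes use all 29. Exact 95% Clopper-Pearson intervals are given for shares of cells and cover counting error only.

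Of 7 fibroblast markers (Col1a1, Col1a2, Col3a1, Pdgfra, Tcf21, Dcn, Lum), 183 of 185 cells held at least 3. This rule is loose and is no check of the labels. The cell that met the Schwann list held 4 of the 7 and the cell that met the cardiomyocyte list held all 7. The authors also found collagen mRNA unreliable for identifying fibroblasts. No cell held 3 endothelial markers, and 27 cells held at least 3 markers of some other type. Of these, 21 met the smooth muscle list (with Acta2 and Tagln in each), 2 the myeloid, 2 the pericyte and 1 each the cardiomyocyte, epicardial and Schwann lists. The authors use αSMA, the protein of Acta2, as a myofibroblast marker as well. Cells that met the smooth muscle list need therefore not be of another type, and leaving them out may remove activated myofibroblasts. Among resident Postn- cells 1 held 6 of 7 myeloid markers, Ptprc (CD45) included, a single fibroblast marker and none of the 10 genes above 5 TPM, so the differences against resident Postn- cells that were past 1 log2 unit are given again without it. Other values of this class include it, and its numbers of cells above 5 TPM would be the same out of the 11 cells left.

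The genes lie on 9 chromosomes (GRCm38, GENCODE M21). The proteases are Mmp2 at chr8:92827291-92853420 (+), Mmp14 at chr14:54431612-54445364 (+), Mmp3 at chr9:7445822-7455975 (+), Mmp23 at chr4:155650655-155653384 (-), Adam12 at chr7:133883199-134232146 (-), Adamts2 at chr11:50602084-50807573 (+) and Adamts5 at chr16:85856173-85901828 (-). The inhibitors are Timp1 at chrX:20870166-20874735 (+), Timp2 at chr11:118301069-118355740 (-) and Timp3 at chr10:86300372-86349506 (+). Timp1 overlaps Syn1 and Timp3 overlaps Syn3 on the opposite strand, and Timp2 overlaps Cep295nl on the same strand without a shared exon base.

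Mmp2, gelatinase A, which degrades denatured collagen and basement membrane collagen, was the most widely detected protease, in 170 of 185 cells, and ranked 198 among all genes by its mean level. In resident Tcf21-traced cells it ran from 3.45 to 11.49 with a median of 9.40, and in resident Postn- cells from 0 to 11.59 with a median of 9.79. After infarction its median was 9.99 in Postn- cells (0 to 11.59), 9.34 in Postn-traced cells (6.32 to 11.01) and 8.60 in Tcf21-traced cells (0 to 11.32). Mmp2 was thus a high transcript of fibroblasts with and without injury, at class means between 8.25 and 9.16 in these 5 classes. It was lower in untraced Postn+ cells, at a median of 6.96 (0 to 10.56), and had a median of 9.05 in scar cells (0 to 11.10), where all 23 cells left after the low-gene cells were removed were above 5 TPM.

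Mmp14, a membrane-bound MMP that cuts fibrillar collagen and activates the Mmp2 proenzyme at the cell surface, was low in most uninjured cells. It was above 5 TPM in 5 of 12 resident Postn- cells (41.7%, interval 15.2 to 72.3%) and 5 of 17 resident Tcf21-traced cells (29.4%, interval 10.3 to 56%), with medians of 0.73 (0 to 8.27) and 1.34 (0 to 9.57). In the infarct 41 of 44 Tcf21-traced cells held it (93.2%, interval 81.3 to 98.6%), with a median of 7.41 (0 to 11.33), as did 24 of 27 Postn-traced cells (88.9%, interval 70.8 to 97.6%), with a median of 7.11 (0 to 9.84). Activated Postn- cells stood with the resident cells, at 11 of 24 cells (45.8%, interval 25.6 to 67.2%) and a median of 0.89 (0 to 8.17). Untraced Postn+ cells lay between, at 22 of 28 cells and a median of 5.59 (0 to 8.75), as did scar cells at 16 of 29 (16 of 23 without the low-gene cells) and a median of 3.79 (0 to 9.72). In every class the values of single cells overlapped with those of every other class. With a minimum of 1 TPM, Mmp14 was detected in 58.8% of resident Tcf21-traced cells, against 29.4% above 5 TPM. It was listed at 0 in 2 of 44 activated Tcf21-traced cells.

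The promoter of Mmp14 is shown because Mmp14 was the protease with the largest difference in class mean between activated and resident Tcf21-traced cells. Promoters are the 250 bases before the RefSeq start, from the GRCm38.p6 build, and were found for 7 of the 10 genes, while Mmp2, Adam12 and Adamts5 had no entry. Both strands were searched for an AP-1 element (TGACTCA), a TEAD element (GGAATG), a GC box (GGGCGG) and a TATA box (TATAAA), which 4.46%, 12.6%, 32.7% and 12.4% of 32851 promoters hold. Capitals mark matches, which describe letters and not binding. The Mmp14 window, chr14:54431348-54431597 on the + strand, held 2 adjacent GC boxes near its end and none of the other 3 motifs.
Mmp14: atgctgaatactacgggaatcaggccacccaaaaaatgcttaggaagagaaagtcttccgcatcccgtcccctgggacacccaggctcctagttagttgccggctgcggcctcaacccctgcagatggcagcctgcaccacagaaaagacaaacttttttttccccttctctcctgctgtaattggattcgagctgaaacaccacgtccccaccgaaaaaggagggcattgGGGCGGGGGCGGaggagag

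Mmp3, stromelysin 1, which cuts proteoglycans, fibronectin and other proenzymes, was rare and, where present, often high. It was above 5 TPM in 19 of 185 cells, of which 3 were resident Postn- cells (6.22, 7.88 and 11.23) and none were resident Tcf21-traced cells, in all 17 of which it was listed at 0 (upper limit 19.5%). In the infarct it was detected in 1 of 24 Postn- cells, 4 of 27 Postn-traced cells, 5 of 28 untraced Postn+ cells, 5 of 44 Tcf21-traced cells and 1 of 29 scar cells. That scar cell, which was also among the 23 left, held the highest Mmp3 value, 12.36, and the 4 Postn-traced cells lay between 7.51 and 9.16. Class means of Mmp3 (0 to 2.11) therefore rest on very few cells.

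The Mmp3 promoter, chr9:7445572-7445821 on the + strand, is shown for this pattern of few high cells. Of the 7 genes with an entry, Mmp3 alone had an AP-1 match, at -46 on the opposite strand, and a TATA box, at -7.
Mmp3: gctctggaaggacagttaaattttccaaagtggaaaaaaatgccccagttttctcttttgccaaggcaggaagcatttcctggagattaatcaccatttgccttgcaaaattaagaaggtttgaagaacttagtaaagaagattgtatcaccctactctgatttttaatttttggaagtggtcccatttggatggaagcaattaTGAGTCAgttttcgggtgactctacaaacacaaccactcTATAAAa

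Mmp23, a small membrane-anchored MMP that is released by proprotein cleavage, was detected in 2 of 12 resident Postn- cells and 7 of 17 resident Tcf21-traced cells. It was above 5 TPM in 12 of 24 activated Postn-, 20 of 27 Postn-traced, 31 of 44 Tcf21-traced and 23 of 28 untraced Postn+ cells. The untraced Postn+ class was uneven: its mean Mmp23 level was 2.58 in the 6 cells of Jul29, 7.09 in the 19 of Nov4 and 7.62 in the 3 of Nov11. In scar cells Mmp23 was detected in 20 of 29 cells, and in 19 of 23 without the low-gene cells. No motif of the 4 was found in either of its 2 promoter windows.

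Adam12, a membrane-anchored protease that sheds growth factors such as HB-EGF, was listed at 0 in all 33 uninjured cells, which allows shares of up to 26.5% of resident Postn- cells and 19.5% of resident Tcf21-traced cells. It was above 5 TPM in 35 of the 152 infarct cells. The classes that held it were 14 of 44 Tcf21-traced cells (31.8%, interval 18.6 to 47.6%), 8 of 28 untraced Postn+ cells (28.6%, interval 13.2 to 48.7%), 7 of 27 Postn-traced cells (25.9%, interval 11.1 to 46.3%), 5 of 29 scar cells (5 of 23 without the low-gene cells) and 1 of 24 Postn- cells (4.17%, interval 0.105 to 21.1%). Its highest level was 8.28, in a Tcf21-traced cell. Adam12 was thus seen only in cells of the infarct among those measured, in at most 31.8% of the cells of a class of 12 or more. Within the Tcf21-traced class its level went with the number of genes above 5 TPM (Pearson r = 0.51 over 44 cells). The same r was 0.03 in Postn-traced, 0.10 in activated Postn-, 0.19 in untraced Postn+ and 0.26 in scar cells. The part of depth in the absence of Adam12 elsewhere was not tested.

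Adamts2, which removes the amino-terminal propeptide of fibrillar procollagens, was above 5 TPM in 4 of 12 resident Postn- and 7 of 17 resident Tcf21-traced cells, against 38 of 44 activated Tcf21-traced cells. It was detected in 22 of 27 Postn-traced, 24 of 28 untraced Postn+, 15 of 24 activated Postn- and 20 of 29 scar cells, or 20 of 23 (87%) without the low-gene cells. Among the classes of 12 or more cells, means ran from 2.15 in resident Postn- cells to 5.22 in untraced Postn+ cells. The shares depended on the minimum. Counting any value over 0, Adamts2 was in 82.4% of resident and 95.5% of activated Tcf21-traced cells, against 41.2% and 86.4% above 5 TPM. With a minimum of 20 TPM the activated share was 63.6%.

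Adamts5, an aggrecanase that cuts aggrecan and versican, went the other way. Activated Postn- cells ran from 0 to 10.58, with a median of 264 TPM, and 22 of 24 (91.7%, interval 73 to 99%) held it. Postn-traced cells of the same capture ran from 0 to 7.95, with a median of 2.28 (3.85 TPM), and 12 of 27 (44.4%, interval 25.5 to 64.7%) held it. The Postn- cells of the infarct were also above resident cells, which had medians of 5.64 (Postn-, 0 to 8.97) and 5.32 (Tcf21-traced, 0 to 9.52). Medians were 5.50 in activated Tcf21-traced cells (0 to 9.20), 4.96 in untraced Postn+ cells (0 to 7.86) and 2.86 in scar cells (0 to 9.84), of which 16 of 29 held it, or 15 of 23 without the low-gene cells. By class means of log2 (TPM+1) Adamts5 was thus highest in activated Postn- cells, although the single-cell ranges overlapped.

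**Figure D1:**
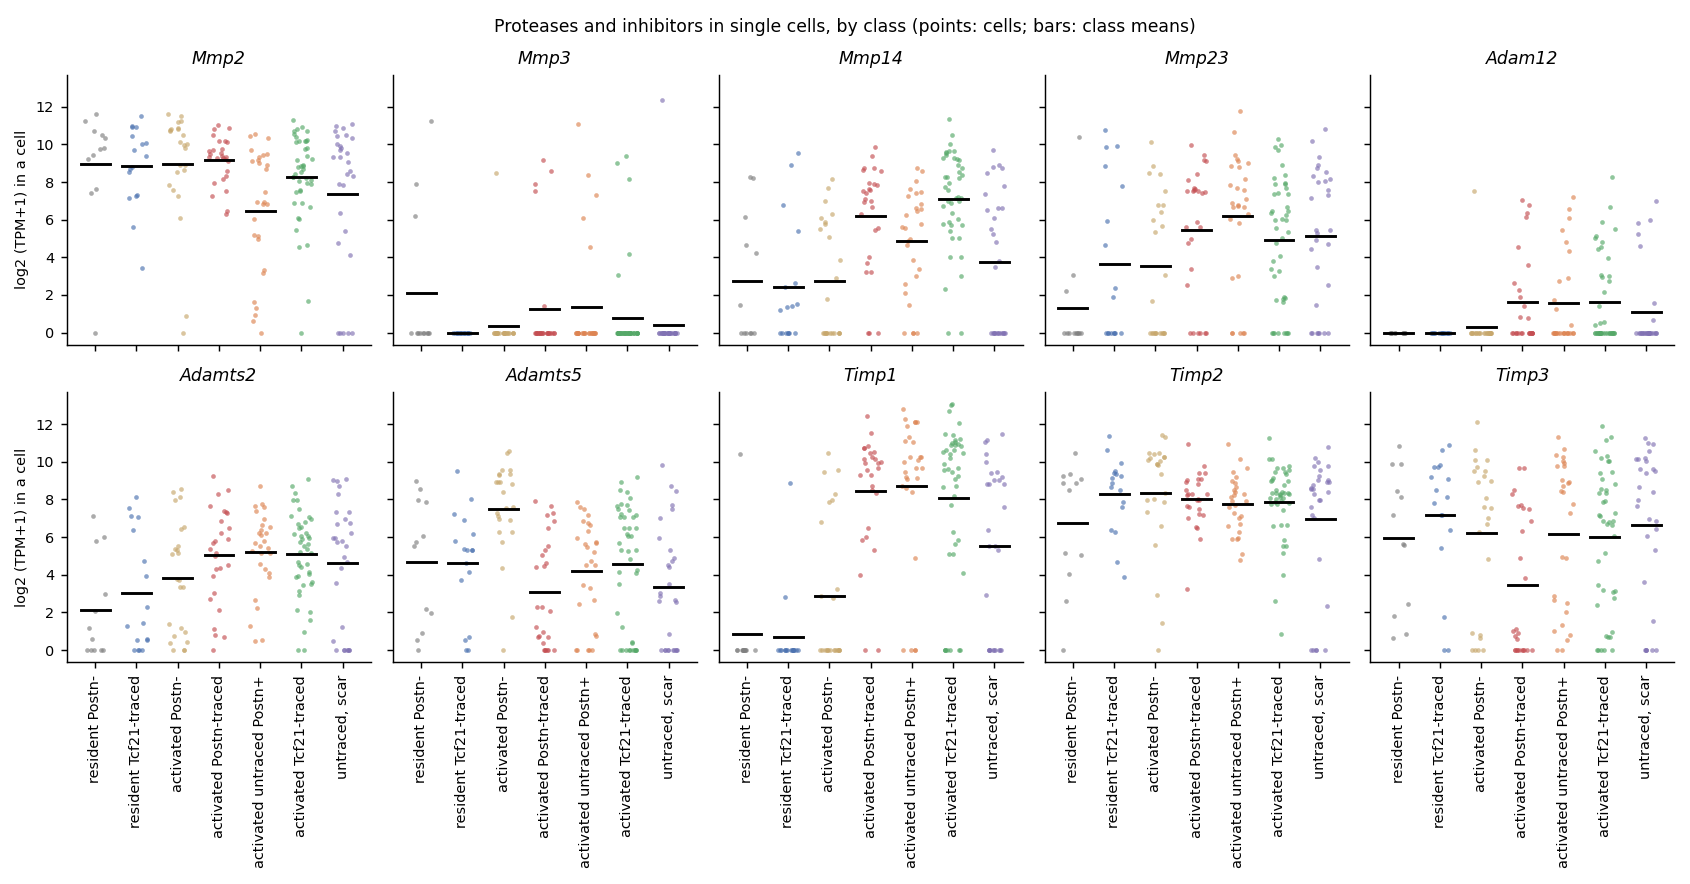
Level of each of the 10 genes, as log2 (TPM+1), in every cell (points) of the 7 classes of 12 or more cells, with bars at the class means. Mmp2 and Timp2 stay high in all 7 classes, Adam12 lies at 0 in all resident cells, and Timp1 has class means of 0.69 and 0.87 in resident cells against 8.47 in Postn-traced and 8.10 in activated Tcf21-traced cells.

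Timp1, a secreted inhibitor of most soluble MMPs with little action on Mmp14, showed the widest spread of class means of the 10 genes. It was above 5 TPM in 1 of 12 resident Postn- cells (8.33%, interval 0.211 to 38.5%), at 10.39, and in 2 of 17 resident Tcf21-traced cells (11.8%, interval 1.46 to 36.4%), the higher at 8.89, with a median of 0 in both classes. In the infarct 25 of 27 Postn-traced cells held it (92.6%, interval 75.7 to 99.1%), with a median of 9.66 (0 to 12.45), as did 37 of 44 Tcf21-traced cells (84.1%, interval 69.9 to 93.4%), with a median of 9.64 (0 to 13.06). Activated Postn- cells differed from both, with 10 of 24 cells (41.7%, interval 22.1 to 63.4%) and a median of 0 (0 to 10.48). Most traced cells of the infarct thus held high Timp1, most resident cells none, and the Postn- cells of the infarct were split.

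Untraced Postn+ cells held Timp1 in 24 of 28 cells, with a median of 9.86 (0 to 12.80). The class means by capture were 3.89 in the 6 cells of Jul29, 10.05 in the 19 of Nov4 and 10.10 in the 3 of Nov11, so this class was high in Nov4 and Nov11 and mixed in Jul29. Scar cells held Timp1 in 19 of 29 cells, with a median of 6.36 (0 to 11.46), and in 19 of 23 (82.6%) without the low-gene cells. Timp1 also went with the number of genes above 5 TPM, at r = 0.61 over the 44 Tcf21-traced cells and r = 0.73 over the 29 scar cells. The scar value includes the 5 cells with 141 to 264 genes, in which Timp1 was listed at 0. The same r was 0.42 in untraced Postn+, 0.27 in Postn-traced and 0.19 in activated Postn- cells.

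By class means of log2 (TPM+1), though not of linear TPM in each case, Timp1 had the largest difference of the 10 genes in both comparisons of traced activated cells with their controls. The Timp1 promoter, chrX:20869916-20870165 on the + strand, is therefore shown. It held 1 TEAD element at -247, 1 GC box at -8 on the opposite strand, and no AP-1 element or TATA box. Among the other windows Adamts2 held 5 GC boxes, and Timp2 and Timp3 held 1 each.
Timp1: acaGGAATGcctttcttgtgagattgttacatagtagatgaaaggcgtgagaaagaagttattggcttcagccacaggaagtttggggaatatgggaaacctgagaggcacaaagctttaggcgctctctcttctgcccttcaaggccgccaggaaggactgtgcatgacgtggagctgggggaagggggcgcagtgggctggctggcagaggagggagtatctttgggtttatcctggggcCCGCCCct

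Timp2, which inhibits MMPs and also joins Mmp14 at the cell surface in the complex that activates Mmp2, was detected in 174 of 185 cells. Its class medians lay between 7.93 and 9.86. Among the classes of 12 or more cells, detection was complete in resident Tcf21-traced, Postn-traced and untraced Postn+ cells. It was lowest in scar cells when all of them were counted, at 23 of 29. Without the low-gene cells it was 22 of 23 (95.7%), above the 91.7% of both resident and activated Postn- cells. Like Mmp2, Timp2 was a standing transcript of fibroblasts in every class.

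Timp3, an inhibitor that binds to the matrix and also blocks ADAM17 and the aggrecanases, was high in resident Tcf21-traced cells, at a median of 8.14 (0 to 10.89). Medians were 8.09 in untraced Postn+ cells (0 to 11.33), 7.96 in scar cells (0 to 11.28, with 22 of 29 above 5 TPM, or 20 of 23 without the low-gene cells) and 7.58 in activated Postn- cells (0 to 12.13). Resident Postn- cells ran from 0.64 to 10.86, with a median of 95.5 TPM. Postn-traced cells had a median of 1.04 (0 to 9.69) and held it above 5 TPM in 12 of 27 cells (44.4%, interval 25.5 to 64.7%). Activated Tcf21-traced cells had a median of 6.88 (0 to 11.91) and held it in 34 of 44 cells (77.3%, interval 62.2 to 88.5%). Postn-traced cells were thus the low class, and the activated Tcf21-traced cells stood nearer to the resident cells.

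Exons of Timp3 and of Syn3, on the opposite strand, share 1733 bases, 21.3% of the 8144 exon bases of Timp3 in GENCODE M21, and Syn3 is listed in the table. Timp3 and Syn3 values went together at r = 0.92 over the 185 cells, and at 0.71 to 0.98 within the 7 classes. How the authors' quantification divided shared reads is not known, but Timp3 with Syn3 added, an alternative chosen after seeing the data, was lower in Postn-traced than in Postn- cells by a difference of -2.84, against -2.78 for Timp3 alone. Timp1 overlaps Syn1 with 0 shared exon bases, and Syn1 was above 5 TPM in 1 cell.

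**Figure D2:**
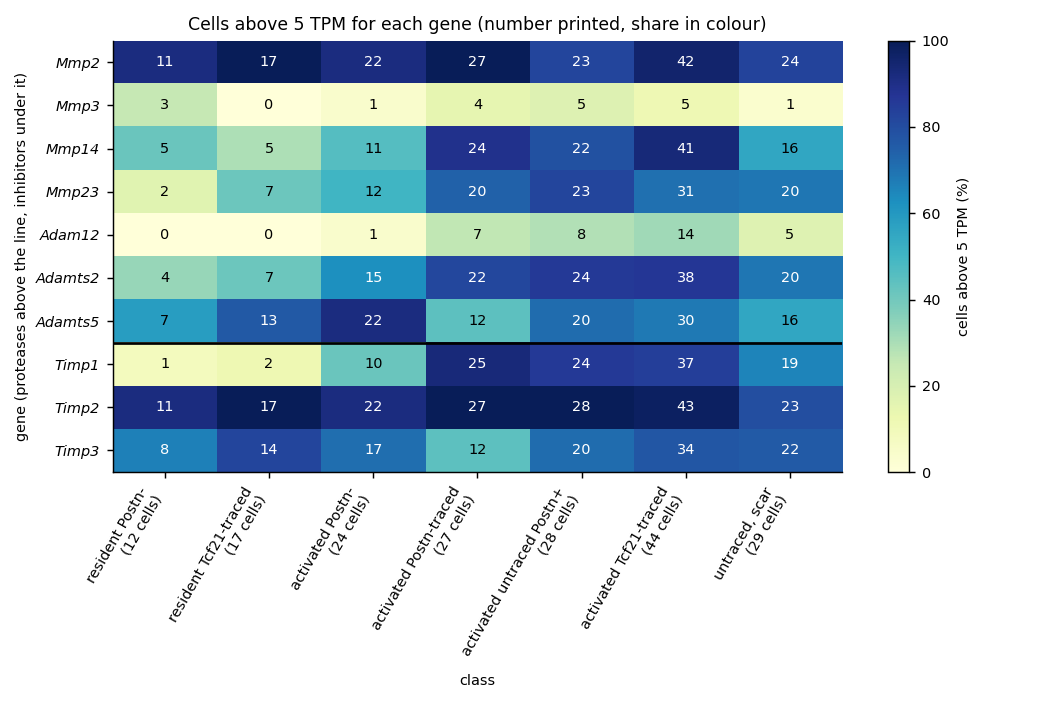
Share of cells above 5 TPM (colour, in percent) and number of such cells (printed) for each of the 10 genes in the 7 classes of 12 or more cells, with proteases above the line and inhibitors under it. Mmp14 goes from 5 of 17 resident to 41 of 44 activated Tcf21-traced cells, and Timp1 from 2 of 17 to 37 of 44.

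Ordered by class mean, no step between neighbouring classes of 12 or more cells exceeded the larger SD of the pair, in 60 steps over the 10 genes. Differences between classes that lie far apart in the order did in some cases, as given for each comparison. In each comparison the background is all genes above 5 TPM in at least 1 cell of either class, and a gene counts as higher or lower when the class means differ by over 1 log2 unit. The members other than Mmp3 and Adam12 ranked from 198 to 989 by mean level, so most background genes lie at lower levels than these. Differences of log2 (TPM+1) understate the change of genes at low levels, and can be larger or smaller than those of averaged TPM.

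Activated Postn-traced cells were compared with activated Postn- cells of the same capture, which asks how traced myofibroblasts differ from other non-endothelial, non-myeloid cells of the infarct. Timp1 was higher by 5.59 log2 units (8.47 ± 3.16 against 2.89 ± 3.94, mean ± SD over 27 and 24 cells) and Mmp14 by 3.44 (6.19 ± 2.85 against 2.75 ± 3.09). Adamts5 differed by -4.39 (3.11 ± 2.89 against 7.50 ± 2.57) and Timp3 by -2.78 (3.44 ± 3.77 against 6.22 ± 4.15). Traced cells thus had higher means of a membrane collagenase and Timp1, and lower means of an aggrecanase and the matrix-bound Timp3. The differences of Timp1, Mmp14 and Adamts5 exceeded the larger SD of both classes, and that of Timp3 did not. The sizes depended on the average used, with Timp1 at 2.67, Mmp14 at 2.27, Adamts5 at -3.24 and Timp3 at -2.14 when TPM were averaged on the linear scale, and the Timp1 difference of class medians at 9.66.

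Mmp23 (1.91), Adam12 (1.33) and Adamts2 (1.21) were also higher, which makes 5 of 10 genes higher and 2 of 10 lower, beside 19.8% and 2.77% of 13303 genes. Mmp2 (0.22), Timp2 (-0.32) and Mmp3 (0.93) differed by less than 1 log2 unit. With TPM averaged on the linear scale 4 members were higher and 3 lower, beside 32.7% and 21.8% of all genes. Mmp23 (0.66) and Adamts2 (0.47) were then within 1 log2 unit, and Mmp3 (1.70) and Timp2 (-1.13) passed it. The values that follow are again means of log2 (TPM+1). The median difference of the 10 genes was 1.07, and that of all genes 0.30. Traced cells held more genes above 5 TPM, at a median of 3643 against 2342. With cells of the gene-number range that both classes share (27 and 18 cells), an alternative chosen after seeing the data, the same counts of 5 and 2 were found beside 20.4% and 3.82% of 13059 genes, with Timp1 at 6.12, Mmp14 at 3.75, Adamts5 at -4.15 and Timp3 at -3.21. Median gene numbers in that range were still 3643 against 2397. It therefore did not match the classes in gene number, and the part of gene number was not tested.

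Smooth muscle markers moved with this comparison. At least 3 of the 6 were held by 3 of 27 Postn-traced cells and 0 of 24 Postn- cells, the median summed level was 257 TPM against 4.34 TPM, and the most abundant was Tagln in traced cells. Cnn1 was in no Postn-traced cell, and Myh11, Cnn1 and Lmod1 were in no Postn- cell. Without the cells that held 3 or more markers of another type (24 and 22 cells left), Timp1 differed by 5.59, Mmp14 by 3.29 and Adamts5 by -4.29.

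Activated Tcf21-traced cells were compared with resident Tcf21-traced cells, which follows the same traced lineage from the uninjured heart to the infarct. Timp1 was higher by 7.41 (8.10 ± 4.13 over 44 cells against 0.69 ± 2.22 over 17) and Mmp14 by 4.68 (7.11 ± 2.56 against 2.42 ± 3.23), and both differences exceeded the larger SD, while linear-scale averages of TPM gave 5.67 and 2.11. Adamts2 was higher by 2.05, and Adam12, at a mean of 1.62 ± 2.35, was set against cells in which it was listed at 0. Mmp23 was higher by 1.27, although its sign turned to -0.63 when TPM were averaged on the linear scale. Timp3 was lower by -1.14 (6.01 ± 3.75 against 7.15 ± 3.47).

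These make 5 of 10 genes higher and 1 of 10 lower, beside 19.9% and 3.13% of 13311 genes. Mmp2 (-0.62), Timp2 (-0.43) and Adamts5 (-0.06) differed by less than 1 log2 unit, and Mmp3 had a mean of 0.77 in activated cells and was listed at 0 in the resident ones. With TPM averaged on the linear scale 4 members were higher and none lower, beside 37.3% and 20.5% of all genes. Mmp23 (-0.63), Adamts2 (0.68) and Timp3 (-0.12) were then within 1 log2 unit. Mmp3 (5.13) passed it, and Adam12 was at 4.08. Injury and capture cannot be told apart here, since resident cells were all from Jul24 and activated cells from Nov4, and the median gene number was 3134 against 2264. In the gene-number range shared by both classes (14 and 17 cells) only Timp1 (5.25) and Mmp14 (3.18) were higher by over 1 log2 unit, Timp3 (-2.88) and Mmp2 (-1.17) were lower, and Adamts2 differed by 0.94, Adam12 by 0.54 and Mmp23 by 0.10. These 2 of 10 higher and 2 of 10 lower stand beside 12.9% and 9.63% of 11078 genes in that range.

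Smooth muscle markers moved here too: 10 of 44 activated and 0 of 17 resident cells held at least 3, with median sums of 129 TPM and 1.3 TPM. Tagln was the most abundant in activated cells, and Myh11 was in no cell of either class. Without the 11 activated cells that held 3 or more markers of another type, Timp1 differed by 7.18, Mmp14 by 4.50 and Timp3 by -1.14.

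Within the Nov4 capture, activated Tcf21-traced cells (44) were compared with untraced Postn+ cells (19), which sets cells of a traced fibroblast origin beside untraced cells with the myofibroblast marker. Mmp2 (8.25 ± 2.34 against 6.62 ± 3.25, a difference of 1.63) and Mmp14 (7.11 ± 2.56 against 5.32 ± 2.53, a difference of 1.79) were higher in the traced cells. Mmp23 (-2.18) and Timp1 (-1.95, from 8.10 ± 4.13 against 10.05 ± 2.73) were lower. No difference exceeded the larger SD. The counts were 2 of 10 higher and 2 of 10 lower, beside 3.87% and 5.85% of 13593 genes, and gene numbers were close, at medians of 3134 and 3361. With TPM averaged on the linear scale, 1 of the 10 genes was higher by over 1 log2 unit and 0 lower, beside 26.2% and 18.3% of all genes. Without the cells that held 3 or more markers of another type (33 and 14 cells left) the same 2 genes were higher (Mmp2 by 1.10, Mmp14 by 1.63) and the same 2 lower (Mmp23 by -2.63, Timp1 by -1.74).

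Among uninjured cells, Tcf21-traced cells (17) were compared with Postn- cells (12) of the same capture. Mmp23 (2.34), Timp2 (1.54) and Timp3 (1.20) were higher and Mmp3 (-2.11) was lower in the traced cells, which makes 3 and 1 of the 9 genes above 5 TPM in either class, beside 12.4% and 9.4% of 10952 genes. No difference exceeded the larger SD. Without the 1 Postn- cell that held myeloid markers, Mmp23 (2.23) and Mmp3 (-2.30) were past 1 log2 unit, while Timp2 differed by 0.93 and Timp3 by 0.74. The inhibitors of the traced cells thus passed 1 log2 unit only with that cell included, and the Mmp3 difference rested on the 3 Postn- cells that held it.

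Activated Postn- cells were compared with resident Postn- cells, again across captures (Jul29 and Jul24), so that injury and capture cannot be told apart. Adamts5 was higher by 2.82 (7.50 ± 2.57 over 24 cells against 4.69 ± 3.37 over 12), Mmp23 by 2.24, Timp1 by 2.02, Adamts2 by 1.67 and Timp2 by 1.57, and Mmp3 was lower by -1.76. Mmp14 did not differ in mean (0.00, with 2.75 in both classes). The counts were 5 of 10 higher and 1 of 10 lower, beside 13.7% and 6.95% of 11766 genes, and no difference exceeded the larger SD. With TPM averaged on the linear scale Mmp23 (0.11) and Timp1 (0.50) were within 1 log2 unit, and Adam12 (3.09) passed it. Adamts5 (1.68), Adamts2 (1.58), Timp2 (1.13) and Mmp3 (-3.83) stayed past it. That makes 4 of 10 higher and 1 of 10 lower on the linear scale, beside 40.3% and 24.4% of all genes. The median of Timp1 was 0 in both classes. Without the cells that held 3 or more markers of another type (22 and 11 cells left) Adamts5 differed by 2.40, Mmp23 by 1.85, Timp1 by 1.83, Adamts2 by 1.57, Timp2 by 0.98 and Mmp3 by -1.92. In the shared gene-number range (21 and 9 cells) 3 of 10 were higher, Adamts5 (2.18), Mmp23 (1.86) and Timp1 (1.61), and 3 lower, Mmp3 (-2.41), Timp3 (-1.07) and Mmp14 (-1.06). Timp2 (0.94) and Adamts2 (0.90) were then within 1 log2 unit, and 12.5% of 10894 genes were higher and 12.5% lower.

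These comparisons share classes: activated Postn-, activated Tcf21-traced, resident Tcf21-traced and resident Postn- cells each stand in 2 of them, so their values are set side by side and not related to each other. For Timp1 the differences were 5.59 (Postn-traced minus Postn-), 7.41 (activated minus resident Tcf21-traced), -1.95 (Tcf21-traced minus untraced Postn+), -0.18 (resident Tcf21-traced minus resident Postn-) and 2.02 (activated minus resident Postn-). For Mmp14 they were 3.44, 4.68, 1.79, -0.33 and 0.00 in the same order. In the shared gene-number range the last 2 of these were -1.43 and -1.06, so whether Mmp14 differed between classes without traced activated cells depended on the cells compared.

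**Figure D3:**
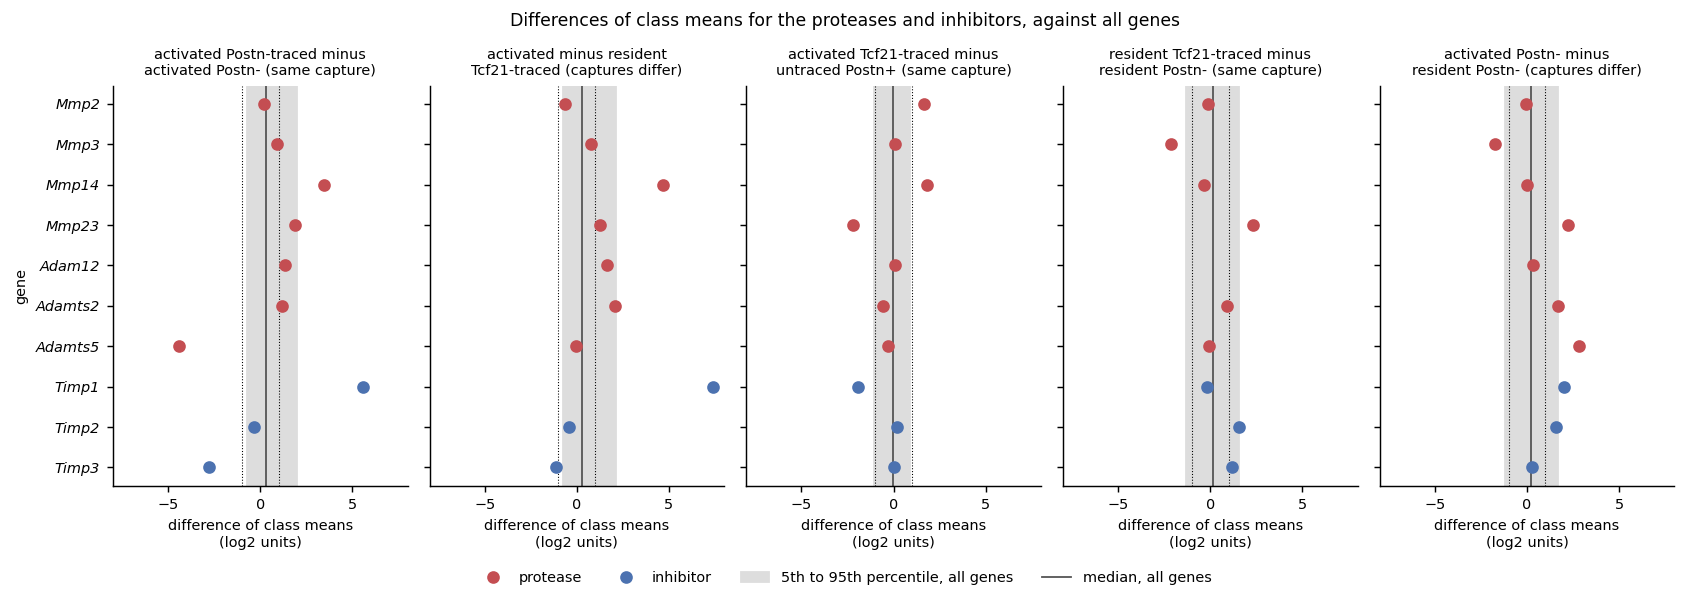
Difference of class means, in log2 units, for each protease (red) and inhibitor (blue) in the 5 comparisons, with the band from the 5th to the 95th percentile and the median of all genes in grey and dotted lines at 1 log2 unit either way. Timp1 (5.59 and 7.41) and Mmp14 (3.44 and 4.68) lie beyond the band in the first 2 panels, and Adamts5 lies at -4.39 in the first.

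The genes that make up each side of the balance differed between classes more than the sums did. Of the summed class mean TPM of the 3 inhibitors, Timp1 made up 12.7% in resident Postn- cells, 2.48% in resident Tcf21-traced cells and 10.3% in activated Postn- cells. The 12.7% came from 1 of the 12 cells, at 10.39, since the other 11 were listed at 0, and the 2.48% almost wholly from 1 of 17 cells, at 8.89. Timp1 made up 66.6% in Postn-traced, 66.7% in untraced Postn+ and 62.9% in activated Tcf21-traced cells, and 32.7% in scar cells. In the untraced Postn+ class Timp1 was 242 of 945 TPM in Jul29, 2110 of 2942 TPM in Nov4 and 1870 of 3049 TPM in Nov11. The inhibitor sum itself was 1133 TPM in resident and 2359 TPM in activated Tcf21-traced cells, and 1549 TPM in activated Postn- beside 1524 TPM in Postn-traced cells. The last pair thus had like sums of different make-up, with Timp2 at 54.4% and Timp3 at 35.3% of the sum in Postn- cells against 25.3% and 8.09% in Postn-traced cells.

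Of the summed protease TPM, Mmp2 made up 65.1% in resident and 45.5% in activated Tcf21-traced cells, while Mmp14 went from 5.9% to 25.8%. In activated Postn- cells Adamts5 was the next gene after Mmp2 (63.4%), at 22.6%, against 3.1% in Postn-traced cells, where Mmp14 followed Mmp2 (56.3%) at 14.6%. In untraced Postn+ cells Mmp2 made up 34.8% and Mmp23 34%, but by capture their mean levels were 480 and 93.3 TPM in Jul29, 359 and 307 TPM in Nov4 and 249 and 1280 TPM in Nov11, so these shares come from pooling unlike captures. Mmp2 was the leading protease in 19 of 27 Postn-traced cells and 21 of 44 activated Tcf21-traced cells, and Mmp14 in 4 and 13 of them.

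**Figure D4:**
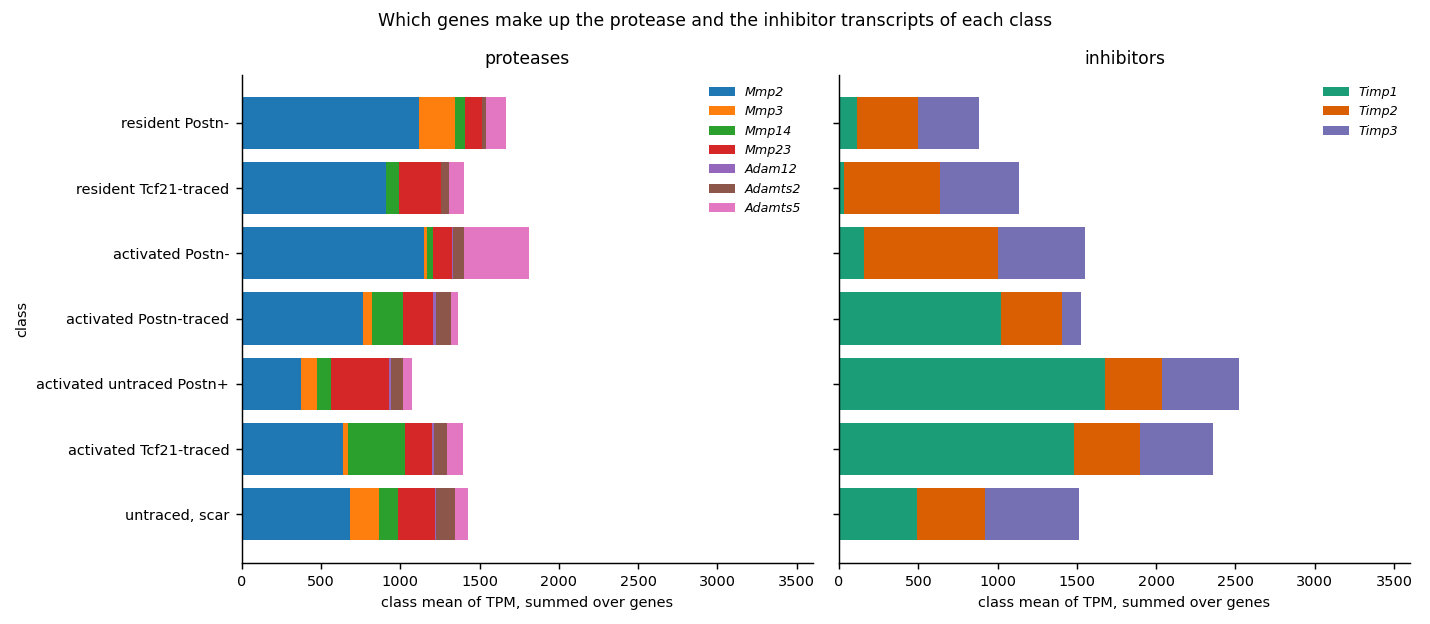
Class mean TPM of each protease (left) and each inhibitor (right), stacked to the sum of the class, for the 7 classes of 12 or more cells. Timp1 makes up 10.3% of the inhibitor sum in activated Postn- and 66.6% in Postn-traced cells, and Adamts5 22.6% of the protease sum in activated Postn- cells.

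The balance of a cell is the log2 ratio of its summed inhibitor TPM to its summed protease TPM, each plus 1, so that a value above 0 means more inhibitor than protease transcripts. It was -1.16 ± 2.73 in resident Postn- cells, with 4 of 12 cells above 0, and -0.23 ± 1.93 in resident Tcf21-traced cells, with a median of -0.86 and 6 of 17 above 0 (35.3%, interval 14.2 to 61.7%). In the infarct it was -0.96 ± 3.12 in Postn- cells (12 of 24 above 0, with a median of -0.20, a lowest cell at -9.94 and a ratio of class means of -0.22) and -0.08 ± 1.39 in Postn-traced cells (13 of 27 above 0). It was 0.22 ± 2.02 in Tcf21-traced cells, with 27 of 44 above 0 (61.4%, interval 45.5 to 75.6%), but 0.02 without the cells that held 3 or more markers of another type and 0.76 as a ratio of class means. Single cells spread to both sides of 0 in each of these classes, and without the cell that held myeloid markers the mean of resident Postn- cells was -1.29.

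Among the classes of 12 or more cells, untraced Postn+ cells had the highest mean, 1.37 ± 2.12, with 20 of 28 cells above 0 (71.4%, interval 51.3 to 86.8%). By capture it was 1.55 ± 1.59 in Nov4 (16 of 19 cells), 1.04 ± 2.83 in Jul29 (3 of 6) and 0.85 in Nov11 (1 of 3). It was 0.62 without the 7 cells that held 3 or more markers of another type, and -0.31 without Timp1. In scar cells the balance was 0.38 ± 3.78, from -9.84 to 11.28, and 0.01 without the low-gene cells. Leaving out Timp1 gave -0.17 in scar cells and -1.22 in activated Tcf21-traced cells. Leaving out Timp3 gave -0.90 in scar cells and -0.16 in activated Tcf21-traced cells, so the side of 0 on which these class means fell rested on which inhibitors were summed. Means near 0 also turned under other settings: with the 4 MMPs as the only proteases resident Tcf21-traced cells were at 0.14 and Postn-traced cells at 0.13, with Syn3 added the former were at 0.14, and as a ratio of class means the latter were at 0.16.

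**Figure D5:**
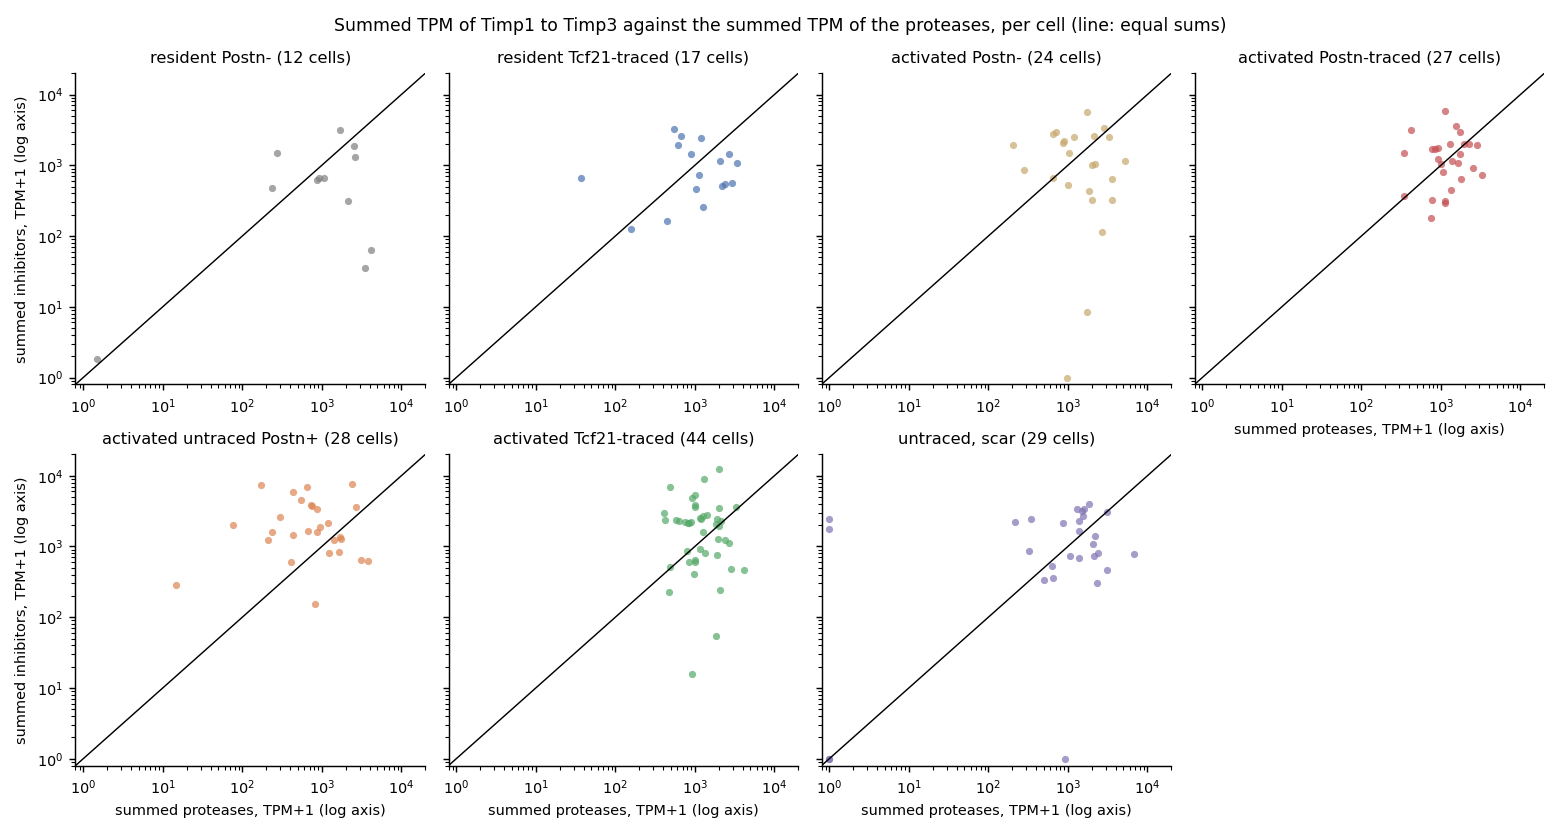
Summed TPM plus 1 of Timp1, Timp2 and Timp3 (vertical, log axis) against that of the 7 proteases (horizontal, log axis) in each cell, in 1 panel for each of the 7 classes, with the line of equal sums. Cells lie on both sides of the line in every class, and 20 of 28 untraced Postn+ cells lie above it.

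The combination of Mmp2, Mmp14 and Timp2, whose proteins form the complex that activates Mmp2, was above 5 TPM in the same cell for 24 of 27 Postn-traced cells (88.9%, interval 70.8 to 97.6%) and 38 of 44 activated Tcf21-traced cells (86.4%, interval 72.6 to 94.8%). It was so in 5 of 17 resident Tcf21-traced, 5 of 12 resident Postn-, 10 of 24 activated Postn-, 18 of 28 untraced Postn+ and 15 of 29 scar cells. Mmp14 alone was in 24, 41, 5, 5, 11, 22 and 16 cells of these classes in the same order. Mmp2 and Timp2 were in most cells of each, so the combination largely restates Mmp14 detection. Mmp14 and Timp1 were found together in 22 of 27 Postn-traced and 35 of 44 activated Tcf21-traced cells, against 1 of 17 resident Tcf21-traced and 4 of 24 activated Postn- cells. Each was in most cells of the first 2 classes, and whether they met more often than their single shares give was not tested.

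Timp1 without Timp3 was found in 13 of 27 Postn-traced cells and 2 of 24 activated Postn- cells, and Timp3 without Timp1 in 0 of 27 (upper limit 12.8%) and 9 of 24. Resident Tcf21-traced cells held Timp3 without Timp1 in 13 of 17 cells, and activated Tcf21-traced cells held both in 30 of 44. Postn-traced cells thus held Timp1 with or without Timp3, resident cells mostly Timp3 alone, and activated Tcf21-traced cells mostly both. The median number of the 10 genes above 5 TPM in a cell was 5 in resident Tcf21-traced and activated Postn- cells, 7 in Postn-traced and 7.5 in activated Tcf21-traced cells.

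Across the cells of a class of 24 or more, correlations were taken between the 8 genes other than Mmp3 and Adam12, where both were detected in at least 40% of the cells. The highest Pearson r outside the scar class was that of Timp2 with Timp3 in activated Postn- cells (0.49 over 24 cells), where the Spearman value was 0.29. In Postn-traced cells the highest correlations were Mmp14 with Mmp23 and with Timp2 (r = 0.47 each over 27 cells, Spearman 0.28 and 0.35), and in activated Tcf21-traced cells Mmp2 with Adamts5 (r = 0.41 over 44 cells, Spearman 0.32). In scar cells Mmp2 went with Timp2 (r = 0.61), Timp1 (0.60) and Adamts2 (0.60) over 29 cells, where Mmp2 also went with gene number (r = 0.84), so the low-gene cells weigh on these values. Cells of a class share a capture or captures, and depth, so these values are descriptions.

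Genes most like each member were those with the highest mean Pearson correlation within the captures Nov4 (63 cells) and Jul29 (57 cells), among 1608 genes in enough cells. For Timp1 they were Lox, which crosslinks collagen, C1qtnf6 and Fn1 (fibronectin), each at a mean r of 0.52. For Mmp2 they were Dcn (0.52), a small proteoglycan, Nid1 (0.51), a basement membrane protein, and Gpx3 (0.48). For Mmp14 they were Wbp5 (0.45), Tmed10 (0.41) and Bsg (0.39), the last an inducer of MMPs also known as EMMPRIN. Each capture pools classes that differ in these genes, so differences between classes enter the correlations.

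For Mmp23 the nearest genes were Rpn1 (0.49), Sparc (0.44) and Col1a2 (0.42), and for Adamts2 Sparc, Glo1 and Cercam (0.36 each). For Adamts5 they were Gstm1 and Dpep1 (0.42 each) and Slc43a3 (0.41). Timp2 was nearest to Pcolce2 (0.36), which enhances procollagen processing, Sod3 (0.33) and Entpd2 (0.32). Timp3 was nearest to its overlapping neighbour Syn3 (0.96), then to Sod3 (0.34) and Cd248 (0.32). Mmp3 and Adam12 were in too few cells for this measure.

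Of 96 further genes in 9 lists of proteases, inhibitors, activators and substrates, 86 are in the table, and 49 were above 5 TPM in at least 25% of the cells of a class. Of 19 other MMPs, 14 are listed, and Mmp11, Mmp12, Mmp16 and Mmp19 reached that share in some class, while Mmp7, Mmp8, Mmp9, Mmp13, Mmp20 and Timp4 are not listed. Between Postn-traced and Postn- cells 3 of 6 other MMPs (Mmp11, Mmp16 and Mmp19) were higher and none lower, 1 of 9 ADAMs (Adam19) and 2 of 15 ADAMTSs (Adamts3 among them) were higher, and none of these were lower, beside 19.8% of all genes higher and 2.77% lower. The counts of ADAMs and ADAMTSs were near these shares and are no result about the families. Between activated and resident Tcf21-traced cells 1 of 7 other MMPs (Mmp16) was higher and none lower, beside 19.9% and 3.13% of all genes. Mmp19 was above 5 TPM in 10 of 27 Postn-traced and 2 of 24 Postn- cells, but in 19 of 44 activated and 5 of 17 resident Tcf21-traced cells (a difference of 0.28).

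Of 9 genes that activate, dock or clear MMPs, 3 (Bsg, Ctgf and Itgav) were higher in Postn-traced than in Postn- cells and 1 lower, beside 19.8% and 2.77% of all genes. The lower gene was Pcsk6, a proprotein convertase, at -4.89 (2.86 against 7.75). Pcsk6 was also lower in activated than in resident Tcf21-traced cells (-1.65), where Furin, the convertase that activates Mmp14, was higher by 1.70 (16 of 44 against 0 of 17 cells above 5 TPM). In that comparison Ctgf (5.03), a matricellular protein that MMPs cleave, and Cd44 (2.88), a docking receptor of Mmp14, were among the 4 of 9 higher, with 1 of 9 lower, beside 19.9% and 3.13% of all genes. Within Nov4 Pcsk6 was higher in Tcf21-traced than in untraced Postn+ cells (2.17) and Ctgf lower (-1.58). Without the cells that held 3 or more markers of another type, Pcsk6 differed by -5.38 between Postn-traced and Postn- cells, by -0.83 between activated and resident Tcf21-traced cells and by 3.79 within Nov4.

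Of the 10 matrix substrates, 9 were measured between Postn-traced and Postn- cells, and 6 of them were higher and none lower, beside 19.8% and 2.77% of all genes. Fn1 (5.98, 9.48 ± 0.98 against 3.50 ± 3.27), Col1a1 (3.90) and Col3a1 (3.55) led, and their differences exceeded the larger SD. Activated Tcf21-traced cells held 7 of 10 higher, Fn1 at 4.57, and 1 lower, the proteoglycan Dcn, beside 19.9% and 3.13% of all genes. Within Nov4 the traced cells had 2 of 10 lower, Col1a1 and Fn1, and none higher, beside 5.85% and 3.87% of all genes. In these 3 comparisons the direction of Fn1 and Col1a1 was that of Timp1, while Mmp14 went with them in the first 2 and against them within Nov4.

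Cysteine cathepsins and cystatins were higher in 4 of 8 and lower in 0 between Postn-traced and Postn- cells (all genes 19.8% and 2.77%), led by Ctsh (3.97, 17 of 27 against 3 of 24 cells), a lysosomal peptidase, with Ctsk, the collagen-degrading cathepsin K, in 20 of 27 against 7 of 24 cells. Activated Tcf21-traced cells had 5 of 8 higher than resident ones and none lower (all genes 19.9% and 3.13%), and among uninjured cells Ctsl was lower in the traced class (-1.82). The protease inhibitor Serpine2 was lower in Postn-traced than in Postn- cells (-1.82). Of 5 stromal serine proteases Fap was higher and 2, Htra3 (-2.22) among them, were lower in Postn-traced cells, and none of 5 differed by over 1 log2 unit between activated and resident Tcf21-traced cells.

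Of the other genes grouped with metalloproteinase inhibitors, in Postn-traced cells 0 of 3 were higher and 1 lower, and in activated Tcf21-traced cells 1 of 5 was higher (Tfpi2) and 1 lower, counts too small to set apart from the shares of all genes (19.8% and 2.77%, and 19.9% and 3.13%). The lower gene was Rarres2 in both (-1.35 and -1.36), which encodes the chemoattractant chemerin and not a metalloproteinase inhibitor. Its second difference was -0.60 without the cells that held markers of another type. Reck, a membrane-anchored inhibitor of MMPs, was above 5 TPM in 0 of 29 cells of the 2 larger resident classes, in 7 of 24 activated Postn- cells and in 9 of 44 activated Tcf21-traced cells.

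Further listed genes that were above 5 TPM in 50% or more of the higher class stood at the ends of the other comparisons. Between activated and resident Tcf21-traced cells Adam19 was lower (-1.61). It was the 1 of 8 ADAMs that was lower, while 2 of 8, Adam9 (2.59) and Adam10 (1.80), were higher, beside 3.13% and 19.9% of all genes. Within Nov4 the C1 inhibitor gene Serping1 (1.80) and Rarres2 (1.19) were higher and the cystatin Cstb (-1.60) and the serine protease Prss23 (-1.55) lower in Tcf21-traced than in untraced Postn+ cells. Without the cells that held markers of another type these were 2.51, 2.47, -1.80 and -1.83. Among uninjured cells the protease inhibitor Serpine2 (2.10), the clearance receptor Lrp1 (1.18) and Bsg (1.12) were higher in Tcf21-traced cells, and Cst3 (-0.98) and Itgav (-0.97) were the next lowest after Ctsl. Without the cell that held myeloid markers these were Serpine2 1.64, Lrp1 0.79, Bsg 0.66, Ctsl -1.79, Cst3 -0.83 and Itgav -1.22, so Lrp1 and Bsg then lay within 1 log2 unit.

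Between activated and resident Postn- cells Ctgf (2.42), the sheddase Adam10 (2.04) and Serping1 (1.62) stood highest, and Cstb (-1.32), the plasminogen activator Plat (-1.18) and Ctsl (-0.95) lowest. Without the cells that held markers of another type these were 2.59, 2.26, 1.36, -1.10, -2.08 and -1.01 in the same order.

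The 4 resident Postn+ cells were too few for a comparison. The untraced 1 held Timp1 at 10.05, Timp2 at 9.86, Timp3 at 9.24 and Mmp2 at 7.59, with Adamts2 at 1.02 and the other 5 genes listed at 0. The 3 Tcf21+ Postn+ cells held Mmp2 at 9.40, 9.29 and 11.18, Mmp14 at 1.11, 6.78 and 3.61, Adamts2 at 2.77, 8.41 and 9.29, and Timp1 at 0, 5.11 and 0. Mmp23 was above 5 TPM in 2 of them, and Adamts5 was at 5.47, 4.38 and 0.42, Timp2 at 0, 9.14 and 8.59, and Timp3 at 4.69, 7.26 and 0 in the same 3 cells, with Mmp3 and Adam12 listed at 0. High Timp1 without injury was thus seen in the 1 untraced Postn+ cell, the 1 Postn- cell at 10.39 and the 1 Tcf21-traced cell at 8.89.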

How the data were processed

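Single fibroblasts were captured on the Fluidigm C1 system, amplified by SMARTer chemistry and made into Nextera libraries. The authors deposited log2 (TPM+1) values for 17171 genes in 185 cells. The header names TPM and the title FPKM, but the values of each cell, converted back, sum to 999257 to 1000000, so they were read as TPM. A further 3 columns without a sample were not used. The submitters' processing notes name Bowtie 1.0.0, eXpress 1.5.1 and mm10. Strandedness and annotation are not given in the sources used here. An average depth is stated in the methods but none for single cells, so the number of genes above 5 TPM (141 to 5419) was used in its place.

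The members and the gene lists were chosen with earlier results of these data known. Class values are means of the deposited values (pseudocount 1) over cells. A gene was detected above 5 TPM, and a difference counted past 1 log2 unit, against all genes above 5 TPM in at least 1 cell of either class. No label names the mouse, so nothing was tested. Other listed genes are named only when above 5 TPM in 25% or more of a class's cells. For each comparison the 3 highest and 3 lowest differences are named among genes above 5 TPM in 50% or more of the higher class, and further names (such as Furin, Ctsk, Reck and Mmp19) were picked after their values were seen. Likeness names the top 3 genes by mean within-capture Pearson correlation. Alternatives were the linear-scale mean, the median, pseudocounts of 0.1, 5 and 10, centred cells, other minimums (1 and 20 TPM), gene-number limits and sums without a gene. Chosen after seeing the data were the shared gene-number range, leaving out cells with 3 or more markers of another type, adding Syn3, and the balance without Timp3. Positions are from GENCODE M21 and promoters from RefSeq (GRCm38.p6). The code ran under Python 3.11.15 with Matplotlib 3.10.9, SciPy 1.17.1, pandas 2.3.3 and NumPy 2.4.6, and was tested on simulated data.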

Additional observations from a re-analysis of the deposited data

How the results depend on the processing

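Of 27 member differences past 1 log2 unit, 21 kept their direction under every setting run and 9 also stayed past 1 log2 unit (Timp1 and Mmp14 in both comparisons of traced activated cells, Mmp14 within Nov4, Adamts5 in both comparisons of activated Postn- cells, Timp3 in Postn-traced cells, Mmp23 among resident cells). No such count is given over all genes, so these are not set against a background. Averaging TPM on the linear scale turned Mmp23 between activated and resident Tcf21-traced cells from 1.27 to -0.63, and left 1 of 4 members past 1 log2 unit within Nov4. Members past it fell from 6 to 3 for activated against resident Tcf21-traced cells with a pseudocount of 5. All genes then fell too, from 19.9% higher and 3.13% lower to 9.95% and 1.77%. Among resident cells members past it fell from 4 to 2 with medians or without the cell with myeloid markers. All genes went from 12.4% higher and 9.4% lower to 6.89% and 5.2% with medians, and to 12.4% and 10.4% without that cell. Without Timp1 the balance went from 1.37 to -0.31 in untraced Postn+ cells, from -0.08 to -1.82 in Postn-traced cells, from 0.22 to -1.22 in activated Tcf21-traced cells and from 0.38 to -0.17 in scar cells. The cause of these changes was not tested. Centring each cell on its median gene moved the median of all genes from 0.30 to 0.82 (Postn-traced minus Postn-), 0.27 to 0.72 (Tcf21-traced), -0.01 to -0.27 (Nov4), 0.15 to 0.21 (resident) and 0.19 to 0.23 (Postn-). Of all genes past 1 log2 unit, the share that was higher went from 39.8% to 14.8% within Nov4 when centred, and with linear-scale means from 87.7% to 60% (Postn-traced), 86.4% to 64.5% (Tcf21-traced) and 39.8% to 58.9% (Nov4). Gene number was used in place of depth, which is not known for single cells, and the effect of depth on detection was not tested. Of the scar cells 5 held under 300 genes.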
